A study of Mus musculus with 4 samples.

Results

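Forkhead genes encode transcription factors that bind DNA through a winged-helix domain, and 10 of them were followed here: Foxf1, Foxf2, Foxl1, Foxc1, Foxc2, Foxd1, Foxd2, Foxp1, Foxp2 and Foxq1. They were taken as the array probes whose gene name equals one of these symbols, which gave 17 of 39429 gene probes and 10 of 29924 gene names. The RNA came from wildtype NMRI mouse ureters dissected at E12.5, before smooth muscle forms. They were kept for 18 h as explants in medium with 10 µM IWP-2 or as controls. The study's methods mention solvents for its cultures in general, and its legend for these arrays calls the controls untreated. IWP-2 blocks the acyltransferase that every WNT ligand needs for its secretion. RNA from pools of ureters was labelled with opposite dyes and hybridised in 4 two-colour arrays, with the treated pool in red on arrays 1 and 3 and in green on arrays 2 and 4.

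Foxf1, Foxf2 and Foxl1 mark the mesenchyme that surrounds epithelial tubes such as the gut, where hedgehog ligands made by the epithelium are known to keep them on. In the mouse genome Foxf1 lies beside Foxc2 and Foxl1, and its paralogue Foxf2 lies between Foxq1 and Foxc1, so that a neighbour and a paralogue are at hand for most of the genes. The E12.5 ureter is an epithelial tube in loose mesenchyme, and the arrays measured both layers together, so they cannot place a transcript of any of the 10 genes in one layer. Foxq1 is known mainly from epithelia, so the set as a whole is not called mesenchymal here.

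Foxl1, Foxf1, Foxf2 and Foxc2 fell under IWP-2, and Foxd1 and Foxp1 rose slightly. Foxc1, Foxd2, Foxp2 and Foxq1 did not pass the test. In limma's test with Benjamini-Hochberg adjustment, 4 of the 10 genes were lower, against 15.0% of the 22455 genes tested, and 2 were higher, against 18.1%. Foxl1, Foxf1 and Foxf2 were lower by at least 2-fold, a size that 0.735% of all genes tested reached. The median of the 10 log2 ratios was -0.032, beside 0.0010 over all genes. In RNA of whole explants, fewer cells of a type and less RNA per cell cannot be told apart, and this holds for each value that follows. All 10 genes passed the filter on dim probes, and each was well above background in both channels of the 4 arrays with the probe used.

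**Figure D1:**
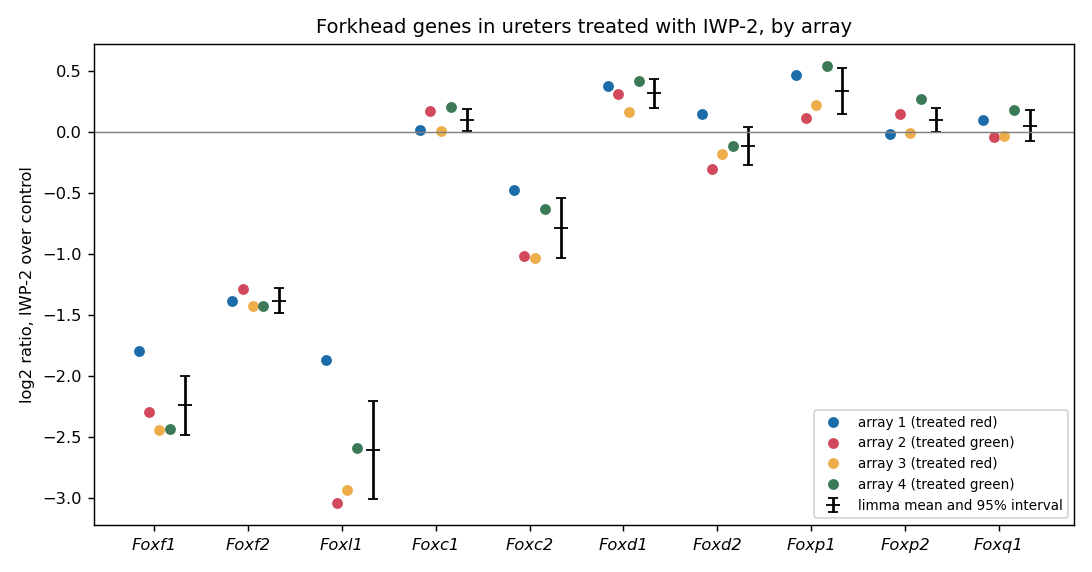
Log2 ratio of IWP-2 over control (vertical axis) for the 10 forkhead genes, with 1 point for each of the 4 arrays and, to the right, the limma mean with its 95% interval. Foxl1, Foxf1, Foxf2 and Foxc2 lie below 0 on every array, Foxd1 and Foxp1 lie above 0 on every array, and the other 4 genes lie close to 0.

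The levels of Foxf1, Foxl1, Foxc2, Foxf2 and Foxc1 were read by 60-base probes. Their first 30 bases are shown here, as part of the stretches of RNA on which the cluster comparisons rest. The probe of Foxq1, which also enters those comparisons, is not shown. Coordinates are those of the mm9 build that the array design gives, all on the plus strand.

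Foxf1, brighter probe, chr8:123611944-123612003: cctcctttctgcactgtataaaagggacaa
Foxf1, dimmer probe, chr8:123610681-123610740: ttcaatgccatggcctcttcttctatgcat
Foxc2, chr8:123642693-123642752: cacaccaaaagactttaaaatttcaatctc
Foxl1, chr8:123654402-123654461: ggtccacagtgatgtctcacaacaactaag
Foxf2, chr13:31723139-31723198: ttttatgatcttcgtatactcacacttcgc
Foxc1, chr13:31902423-31902482: cttaagcagtaattgctgttgcttgttgtc

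Foxf1, which is required for the mesenchyme around several tubular organs, lost most of its signal. The processed signal of its brighter probe was 2931, 2760, 3913 and 3333 in the control channel of arrays 1 to 4 and 832, 550, 712 and 609 in the treated channel. Every treated channel lay below every control channel. The normalised log2 ratios were -1.79, -2.29, -2.44 and -2.43, with a mean of -2.24 ± 0.31 (SD, n = 4 arrays). Foxf1 thus fell to 21.2% of its control level, a 4.72-fold decrease (limma, adjusted p = 4.66e-05), and ranked 16 from the lowest among the 22455 genes. The dimmer probe, which starts at base 1051 of the transcript where the brighter starts at base 2314, gave log2 ratios of -1.27, -1.96, -1.9995 and -1.71. Both probes fell, and on both the smallest decrease was on array 1. The mean processed signal of the dimmer probe was 209 in the control and 50.2 in the treated channels. The offset added to dim signals draws its ratios more towards 0, so its values do not show a smaller decrease.

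Foxl1, a mesenchymal regulator of epithelial growth in the gut, fell to 16.4% of its control level. Its processed signal was 1109, 1248, 1741 and 1418 in the control channels and 284, 139, 213 and 223 in the treated channels, with no overlap. The log2 ratios of arrays 1 to 4 were -1.86, -3.04, -2.93 and -2.59. Their mean was -2.61 ± 0.53 (SD, n = 4 arrays), a 6.09-fold decrease (limma, adjusted p = 0.000187), and only 6 of the genes tested had a lower mean. The decrease was again smallest on array 1, and it spread more between arrays than that of any other of the 10 genes.

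Foxf2, the paralogue of Foxf1 with a like role in gut mesenchyme, fell to 38.4% of its control level. Control signals were 599, 809, 980 and 924, and treated signals were 216, 325, 356 and 337. The ratios were close to one another, at -1.39, -1.29, -1.43 and -1.42 on the log2 scale, with a mean of -1.38 ± 0.066 (SD, n = 4 arrays). This 2.61-fold decrease (limma, adjusted p = 1.54e-05) ranked 74 from the lowest. It had the smallest spread between arrays of the 10 genes.

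Foxc2, which is known for its part in lymphatic vessels and in paraxial and kidney mesenchyme, fell by less. Control signals were 9817, 10369, 14055 and 12064, and treated signals were 7169, 5009, 7096 and 7654. The log2 ratios were -0.48, -1.02, -1.03 and -0.63, with a mean of -0.79 ± 0.28 (SD, n = 4 arrays). The treated channels held 57.9% of the control level (limma, adjusted p = 0.00248), and the groups did not overlap. In the submitters' own normalised table the mean was -0.81 with an adjusted p of 0.0778 by limma, so the call was lost there. It was kept in the other 14 of 15 alternatives.

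Its paralogue Foxc1, which takes part in kidney and ureter formation, had log2 ratios of 0.012, 0.17, 0.0056 and 0.20. The mean was 0.098 ± 0.10 (SD, n = 4 arrays), and the 95% interval ran from 0.0067 to 0.19 (limma, adjusted p = 0.0943). Any increase was thus within 0.19 on the log2 scale by that interval. With the submitters' own table the mean was 0.069 and the adjusted p 0.00754 by limma. The values there match coarsely rounded fold changes, which can hide the spread between arrays. That p is therefore not read as an increase.

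Foxd1, the gene that marks the stroma of the embryonic kidney, was slightly higher in the treated pools. Its log2 ratios were 0.37, 0.31, 0.16 and 0.42, with a mean of 0.31 ± 0.11 (SD, n = 4 arrays), a 1.24-fold increase (limma, adjusted p = 0.00519). The ratio was above 0 on each array, although the control signals of 2204 to 4197 and the treated signals of 2752 to 5563 overlapped between arrays. The call was lost with the submitters' table (adjusted p = 0.0904 by limma) and when the 8 channels were fitted as separate samples (adjusted p = 0.327 by limma). Foxd2, its paralogue, had ratios of 0.15, -0.30, -0.18 and -0.12, with a mean of -0.11 ± 0.19 (SD, n = 4 arrays; limma, adjusted p = 0.227). Array 1 alone lay above 0 for Foxd2.

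Foxp1 and Foxp2 belong to a subfamily that also acts as repressors and that pairs through a zipper beside the forkhead domain. Foxp1 was covered by 5 probes, and the brightest gave log2 ratios of 0.46, 0.11, 0.22 and 0.54. The mean was 0.33 ± 0.20 (SD, n = 4 arrays), a 1.26-fold increase (limma, adjusted p = 0.0206). The other 4 probes had means of 0.24, 0.26, 0.34 and 0.25, so all 5 were higher on average. Those with means of 0.24 and 0.25 were below 0 on array 2, at -0.030 and -0.20. The call for Foxp1 was lost without array 1, where the mean was 0.27 (adjusted p = 0.0771 by limma), and with the submitters' table (mean 0.31, adjusted p = 0.213 by limma). Foxp2 had ratios of -0.017, 0.15, -0.0089 and 0.27 with its brightest probe, with a mean of 0.097 ± 0.14 (SD, n = 4 arrays; limma, adjusted p = 0.118). The second of its 3 probes averaged 0.057, and the third was not well above background on all 4 arrays of either group, so that 16 of the 17 probes passed the filter.

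**Figure D2:**
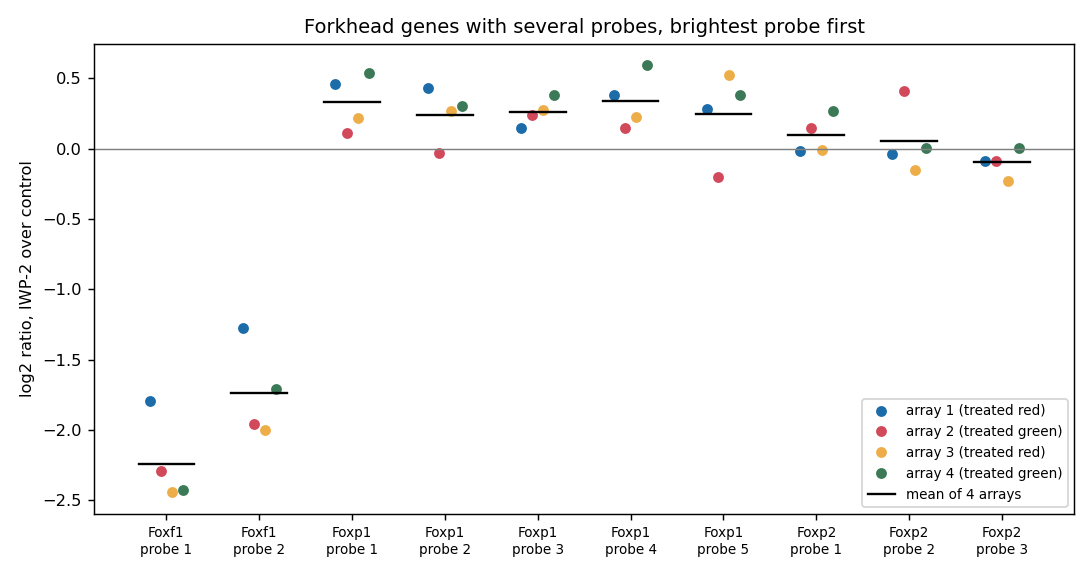
Log2 ratio of IWP-2 over control (vertical axis) by array for every probe of Foxf1, Foxp1 and Foxp2, the genes with more than 1 probe, ordered from the brightest probe, with bars at the means. Both Foxf1 probes lie between -2.44 and -1.27, the 5 Foxp1 probes have means of 0.24 to 0.34, and the third Foxp2 probe, near background, averages -0.097.

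Foxq1, the epithelial gene beside Foxf2, did not pass the test. Its log2 ratios were 0.098, -0.045, -0.036 and 0.18, on either side of 0. The mean was 0.050 ± 0.11 (SD, n = 4 arrays), with a 95% interval of -0.077 to 0.18 (limma, adjusted p = 0.509).

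The pairs were then compared within each array, as the difference of the log2 ratios of both genes, since each array holds 1 treated and 1 control pool. With 4 arrays the exact sign-flip test, two-sided, cannot give a p below 0.125, so no pair could pass a threshold of 0.05, and over the 10 pairs compared the smallest adjusted p was 0.156. Each difference is therefore given with its spread and its direction on the arrays.

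Among the paralogues, Foxf1 with its brighter probe had a lower ratio than Foxf2 on all 4 arrays. The differences were -0.41, -1.005, -1.014 and -1.007 (mean -0.86 ± 0.30, SD, exact p = 0.125 by sign flips). With the dimmer Foxf1 probe the normalised direction did not hold on array 1, where that probe was at -1.27 and Foxf2 at -1.39. On that array the processed control and treated signals were 156 and 54.6 for the dimmer probe and 599 and 216 for Foxf2. The offset added to dim signals draws the ratio of the dimmer probe more towards 0, so this value does not settle the direction. With the mean of all probes of a gene the mean difference was -0.61. With the brighter probe the difference was closely alike on arrays 2 to 4 and smaller on array 1. Foxc1 minus Foxc2 was 0.49, 1.19, 1.04 and 0.83 (mean 0.89 ± 0.30, SD; exact p = 0.125), in the same direction on each array. Foxd1 minus Foxd2 was 0.43 ± 0.18 (SD; exact p = 0.125) and also above 0 on all 4 arrays. Foxp1 minus Foxp2 was 0.23 ± 0.21 (SD; exact p = 0.25), with array 2 at -0.039 and the other 3 above 0.

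On chromosome 8 the 3 neighbours lie close together: the probe of Foxc2 starts 30.7 kb and that of Foxl1 42.5 kb beyond the brighter Foxf1 probe. All 3 fell, but not by the same amount. Foxf1 minus Foxc2 was -1.32, -1.27, -1.41 and -1.80 on the log2 scale (mean -1.45 ± 0.24, SD; exact p = 0.125). The gap of Foxl1 to Foxc2, which lies between Foxf1 and Foxl1, was -1.39, -2.02, -1.90 and -1.96 (mean -1.82 ± 0.29, SD; exact p = 0.125). Foxf1 and Foxl1, the outer genes, were nearer to each other, with differences of 0.071, 0.75, 0.49 and 0.16 (mean 0.37 ± 0.31, SD; exact p = 0.125). Foxl1 had the lower ratio on each array, by less than 0.2 on arrays 1 and 4. All 3 genes had their smallest decrease on array 1.

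On chromosome 13 only the middle gene of the 3 forkhead genes fell. The Foxf2 probe starts 70.9 kb beyond that of Foxq1, and the Foxc1 probe 250.2 kb beyond it. Foxf2 minus Foxq1 was -1.49, -1.24, -1.39 and -1.61 (mean -1.43 ± 0.15, SD; exact p = 0.125). Foxf2 minus Foxc1 was -1.40, -1.46, -1.43 and -1.63 (mean -1.48 ± 0.10, SD; exact p = 0.125). Each of these differences was many times its spread between arrays. Foxq1 and Foxc1 differed by -0.048 ± 0.12 (SD; exact p = 0.625), with arrays on both sides of 0.

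**Figure D3:**
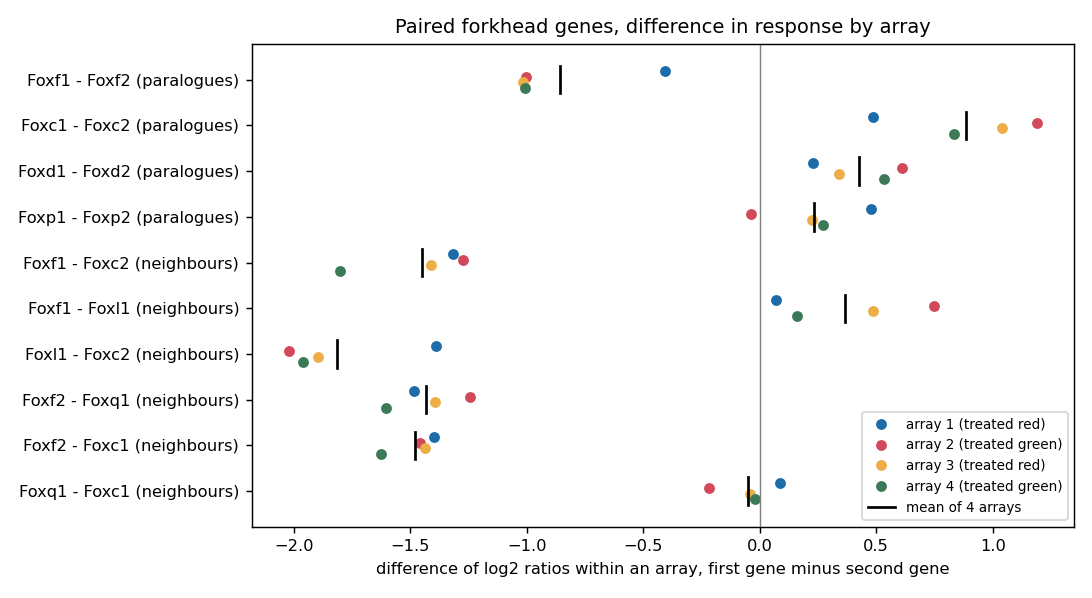
Difference of the log2 ratios of 2 forkhead genes within an array (horizontal axis, first gene minus second gene) for 4 pairs of paralogues and 6 pairs of neighbours, with 1 point for each array and a bar at the mean. The arrays fall on one side of 0 in 8 of the 10 pairs, and the exceptions are Foxp1 with Foxp2 and Foxq1 with Foxc1.

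Other genes near the clusters were set beside the forkhead genes to see whether the decrease extended beyond them. Within 500 kb of the chromosome 8 cluster 12 other genes were tested, of which 1 was lower, 2 were higher and 9 did not pass (limma, adjusted over all genes). Over all genes tested 15.0% were lower and 18.1% higher, so these counts were near the general share. The log2 ratios of the 12 genes ranged from -0.38 to 0.24. Mthfsd, whose probe lies 9.91 kb beyond that of Foxf1 and before Foxc2, had a mean of 0.023 ± 0.029 (SD, n = 4 arrays; limma, adjusted p = 0.679). The gene that was lower, Gins2, lies 499.3 kb before Foxf1 and had a mean of -0.38 ± 0.10 (SD, n = 4 arrays; limma, adjusted p = 0.00162). Map1lc3b and Zcchc14 were higher, at 0.16 and 0.24, with probes 509.8 and 511.5 kb beyond Foxf1. The other 8 genes that did not pass were Gm10614, 1190005I06Rik, Emc8, Cox4i1, Irf8, Fbxo31, 2600002B07Rik and an unnamed transcript, at -0.10 to 0.16. No ratio among these 12 genes came near those of Foxf1 and Foxl1.

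Fendrr, a long noncoding RNA transcribed away from Foxf1 on the opposite strand, was close to the detection limit. Its probe, at chr8:123589495-123589554, 22.4 kb before that of Foxf1, had control signals of 7.66, 6.01, 11.3 and 10.5 and treated signals of 3.37, 1.98, 5.05 and 1.53. It was well above background in 3 of the 4 control channels and not well above background in any treated channel, so it did not pass the filter. Against the lowest signal that was well above background, it was at least 1.19-fold lower with IWP-2. Without the filter its log2 ratios, drawn towards 0 by the offset added to dim signals, were -0.32, -0.29, -0.34 and -0.55 (limma, adjusted p = 0.00417).

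Within 500 kb of the chromosome 13 cluster 4 other genes were tested, with log2 ratios from -0.22 to 0.011. Only Gmds, an enzyme of fucose metabolism whose probe lies 259.3 kb beyond that of Foxq1, passed the test, at -0.22 ± 0.11 (SD, n = 4 arrays; limma, adjusted p = 0.0133). The transcript 4930548F15Rik, 252.0 kb beyond Foxq1 and next to Foxc1, had -0.17 (adjusted p = 0.112 by limma). 1700018A04Rik and BY742470, which lie between Foxq1 and Foxf2, had -0.13 and 0.011 and did not pass. Foxf2 had the largest change among the 7 genes tested here, a count that covers the probes analysed and may not cover every gene of the window.

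**Figure D4:**
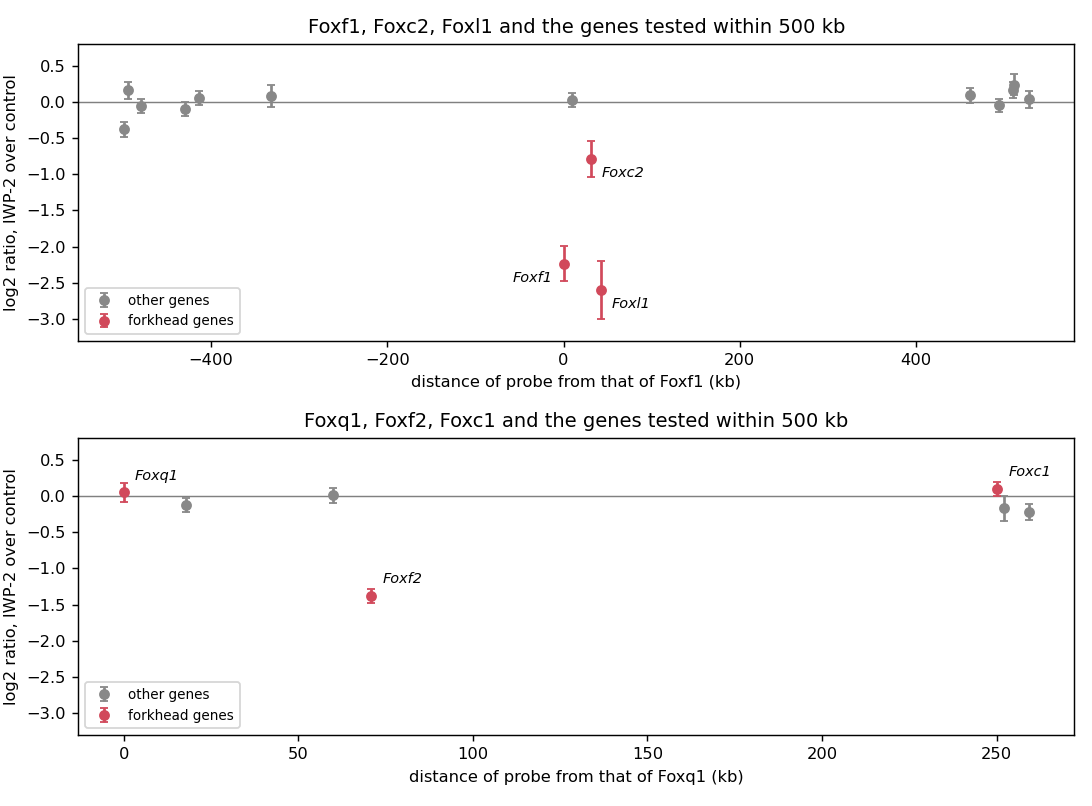
Log2 ratio of IWP-2 over control (vertical axis, limma mean with 95% interval) against the distance in kb of each probe from that of the first gene of the cluster, for every gene tested within 500 kb. On chromosome 8 the forkhead genes lie at -2.61 to -0.79 and the 12 other genes between -0.38 and 0.24; on chromosome 13 Foxf2 lies alone at -1.38.

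The promoters of Foxf2 and Foxc1 are shown as an example of neighbours on one chromosome that differed in response. Promoters of 5 of the 10 genes, these and Foxd1, Foxd2 and Foxp1, were in the extract of RefSeq sequences for GRCm38.p6 used here. Each line gives the 250 bases before the start of transcription on the plus strand. Capitals mark the GC box GGGCGG and the CCAAT box, searched on both strands.

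Foxf2, chr13:31625566-31625815: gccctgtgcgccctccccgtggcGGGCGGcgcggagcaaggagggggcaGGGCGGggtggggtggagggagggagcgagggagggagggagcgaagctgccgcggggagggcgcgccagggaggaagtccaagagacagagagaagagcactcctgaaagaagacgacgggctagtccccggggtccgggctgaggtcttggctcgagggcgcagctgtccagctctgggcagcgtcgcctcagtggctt
Foxc1, chr13:31806396-31806645: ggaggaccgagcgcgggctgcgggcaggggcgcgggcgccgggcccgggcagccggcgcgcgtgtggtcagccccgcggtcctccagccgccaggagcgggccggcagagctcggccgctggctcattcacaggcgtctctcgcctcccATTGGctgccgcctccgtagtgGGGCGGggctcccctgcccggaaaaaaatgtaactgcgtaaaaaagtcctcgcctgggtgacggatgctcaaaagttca

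Foxf2 held 2 GC boxes and no CCAAT box, and Foxc1 held 1 of each, while 32.7% of 32851 promoters held a GC box and 33.9% a CCAAT box. Both windows were rich in G and C, at 71.6% for Foxf2 and 70.8% for Foxc1, beside a median of 52.4%. The TCF/LEF letters CTTTGA or CTTTGT, found on either strand in 27.6% of the promoters, were in neither window. The GLI letters GACCACCCA, found in 0.225% of promoters, were also in neither. These counts describe the letters of these windows alone.

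The rest of the forkhead family was called about as often as all genes. Of 33 other forkhead genes listed, 24 passed the filter on dim probes. By limma's test 5 of the 24 were lower and 3 were higher, beside 15.0% and 18.1% of all genes. Their median log2 ratio was -0.030. Foxe1, known from thyroid development, was the one gene among them that passed the test with a change of at least 0.5, at -0.53, -1.10, -1.21 and -0.90 (mean -0.93 ± 0.30, SD, n = 4 arrays; limma, adjusted p = 0.00148). Its mean signal was low, at 31.4 in the control and 7.24 in the treated channels, and the offset added to dim signals draws such a log2 ratio towards 0, so that -0.93 understates the difference between these signals. Foxa2, named after its values were seen, had a mean of 0.50 ± 0.64 (SD, n = 4 arrays) from ratios of -0.21 to 1.32 and did not pass (adjusted p = 0.0801 by limma). The 9 genes that were too dim to test were Foxb1, Foxb2, Foxe3, Foxj1, Foxn1, Foxn4, Foxp3, Foxr1 and Foxr2.

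**Figure D5:**
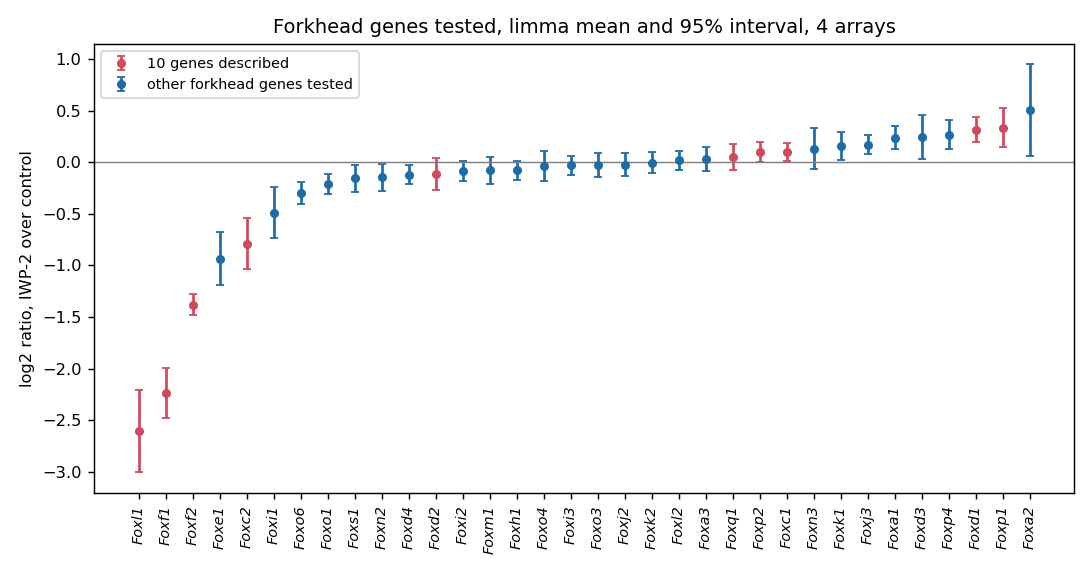
Log2 ratio of IWP-2 over control (vertical axis, limma mean with 95% interval, 4 arrays) of the 34 forkhead genes tested, ordered by their mean, with the 10 genes described in red and the 24 others in blue. Foxl1, Foxf1 and Foxf2 lie below -1, followed by Foxe1 at -0.93 and Foxc2 at -0.79.

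The genes whose ratios on the 4 arrays were nearest to those of Foxf1, Foxl1 and Foxf2 were sought by Euclidean distance over the 4 log2 ratios, among 19021 named genes. Nearest to Foxf1 were Scube2, which encodes a protein that helps release hedgehog ligands, with a mean of -2.12 and a distance of 0.38, and Rgcc, a cell cycle regulator, with -2.10 and 0.39. Notumos, the third by this measure, was not well above background in any treated channel, so its place is not firm. It was at least 4.99-fold lower. Nearest to Foxl1 were Hhip, a hedgehog-binding target gene, at -2.49 and a distance of 0.34, then Sp5, a WNT target, at -2.72 and 0.55, and Epha8, an ephrin receptor, at -2.54 and 0.67. For Foxf2 they were Rasgef1c, Ccdc85a and Lppr5, at -1.43, -1.44 and -1.44 and at distances of 0.12, 0.18 and 0.19. The distances compare normalised log2 ratios, which the offset draws towards 0 for dim probes. The mean signals of Sp5 were 254.7 and 23.5 and those of Lppr5 95.01 and 23.3 in the control and treated channels, so a small distance to a brighter forkhead gene does not show a decrease of equal size.

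Of 7 hedgehog pathway genes, 3 were lower and 1 higher by limma's test, beside 15.0% and 18.1% of all genes tested. The targets Hhip, Gli1 and Ptch1 fell, with mean log2 ratios of -2.49, -1.503 and -1.20. Shh, the ligand, rose by 0.54 (adjusted p = 0.000417 by limma), with 0.46, 0.67, 0.51 and 0.53 on the 4 arrays. The transducers Smo, Gli2 and Gli3 had values of -0.077, 0.0030 and 0.071 and did not pass. Hhip, Gli1 and Ptch1 had their smallest decrease on array 1, at -1.89, -0.80 and -0.84, as did Foxf1, Foxl1 and Foxc2. All 8 WNT target genes listed were lower, from -2.72 for Sp5 to -0.44 for Lgr5, with a median of -1.52. The median of the WNT targets on array 1 was -1.41, against -1.64, -1.46 and -1.51 on arrays 2 to 4. Axin2, Sp5, Apcdd1, Tcf7, Notum and Lgr5 among them also had their smallest decrease on array 1, but Lef1 and Nkd1 did not. A smallest decrease on array 1 was thus not particular to the hedgehog targets and the forkhead genes, but the gap differed between genes. Gli1 was at -1.99 to -1.42 on arrays 2 to 4, Ptch1 at -1.51 to -1.17 and Hhip at -2.78 to -2.57. For Axin2, Apcdd1 and Tcf7, array 1 was at -1.48, -1.59 and -1.26, beside -1.53, -1.60 and -1.28 on the nearest other array. For Sp5, Notum and Lgr5 these values were -2.39, -0.42 and -0.27 beside -2.66, -0.52 and -0.44.

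Markers of the cell types in the explants were measured beside the forkhead genes. Their counts stand beside 15.0% lower and 18.1% higher over all genes tested. All 7 epithelial markers were higher, by 0.24 to 0.34, and their summed signal was 40882 to 54041 in the control and 46388 to 67147 in the treated channels. Of 6 mesenchymal markers, Tbx18 was lower at -0.74 and Pdgfrb higher at 0.80, and Pdgfra, Col1a1, Col3a1 and Vim did not pass, at -0.067 to 0.23. The summed signal of the 6 was 84239 to 116098 in the control and 90734 to 118138 in the treated channels. Of 6 endothelial markers 4 were higher, with sums of 11949 to 16825 and 13520 to 19284. Of 6 nephron progenitor markers 5 were higher and Crym was lower, with sums of 11243 to 14125 and 12189 to 16070. Six2 was at 1.14, Cited1, Osr1, Eya1 and Meox1 were at 0.16 to 0.39, and Crym was at -0.96. Every marker listed passed the filter on dim probes. The part of these cell types in the decrease of the forkhead genes was not tested.

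The 4 arrays lay on 1 slide and were scanned in 1 run. In a channel, 75.1% to 80.0% of gene probes were well above background on most of their spots. Arrays with the same dye orientation correlated more closely, at 0.81 and 0.85 over 22863 probes, than arrays with opposite orientation, at 0.63 to 0.75. The dye term passed the test for none of the 10 forkhead genes, with adjusted p of 0.234 or more by limma, and over all genes for none at an adjusted p under 0.05 and for 4235 at an unadjusted p under 0.05. With the treated pool in red the means of Foxf1, Foxl1 and Foxf2 were -2.12, -2.40 and -1.41, and with it in green they were -2.36, -2.81 and -1.36.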

How the data were processed

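Per the labels, each array compared cRNA of IWP-2-treated with control ureters, labelled with opposite dyes, and Agilent Feature Extraction 10.7.3.1 read the images. The deposited scanner files give an intensity per spot and channel and a log10 ratio of red over green, and the deposited series table gives normalised values of unstated scale, taken here as a score that tracked the log2 ratio of treated over control (r of 0.989 to 0.993). The direction follows the dyes in the labels, and all 4 arrays correlated positively. Mean intensities were background-corrected by normexp with an offset of 50, normalised by loess within arrays, and averaged over the 4 spots of a probe with outlier spots left out. Probes had to be well above background in all 4 treated or all 4 control channels. The brightest probe stood for a gene, which left 22455 genes.

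limma 3.58.1 in R 4.3.3 was fitted on log2 ratios with a dye term, and p-values were adjusted by Benjamini-Hochberg over all genes tested at 0.05. For the arrays, the study's methods name no test and describe 4 pools per group. The study's figure legend for this experiment gives fewer pools, so whether the 4 arrays hold separate pools is not settled here. The SD and p-values treat the 4 arrays as separate, and the number of arrays limits the precision. Pairs were compared by exact sign flips. The genes named were the 10 members with every probe, other forkhead genes past the test with a log2 change of at least 0.5, genes within 500 kb of the clusters, and the 3 nearest genes by distance. Where a name was outside this rule, it came from a list given whole. Members and lists were chosen with earlier results of these data known. Some listed genes are not reported here. Sequences were read from the array files and, for promoters, from RefSeq tables. The fit was tested on simulated data.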

Additional observations from a re-analysis of the deposited data

Results flagged for a closer look

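Among 46 genes and pairs, 2 had 1 array far from the other 3 by Dixon's criterion, where chance gives about 1 in 20, or 2.3. Foxf1 minus Foxf2 was -0.41 on array 1, against -1.014 to -1.005 on the other 3. Scube2, the gene nearest to Foxf1, was at -1.91 on array 1, against -2.23 to -2.18.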

How the results depend on the processing

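The 10 genes were recomputed under 15 alternatives each. Foxf1 stayed between -2.40 and -1.99, Foxl1 between -2.87 and -2.34 and Foxf2 between -1.43 and -1.35, each past the test in all 15, with adjusted p of 2.14e-06 to 0.0162, 8.45e-06 to 0.0311 and 1.19e-06 to 0.00429 by limma. When each replicate was left out, Foxq1 ranged from -0.0070 to 0.11 and Foxq1 minus Foxc1 from -0.093 to 0.0076, and both thus turned in sign from values near 0, Foxq1 without replicate 4 and the difference without replicate 2. Foxf1 minus Foxc2 was -1.20 with the mean of all probes of a gene. Forkhead members higher numbered 1 in place of 2 with the series table, with 8 channels as separate samples and without replicate 1. With the series table that 1 was Foxc1, since both Foxd1 and Foxp1 lost their call. The values of that table match coarsely rounded fold changes, so the Foxc1 call is not read as an increase. The count was 1 to 2 when each replicate was left out. Other forkhead genes higher numbered 1 in place of 3 with median centring and with the series table, and other forkhead genes lower numbered 2 in place of 5 with the series table and with 8 channels. The cause was not tested. Over all genes the calls were 3359 lower and 4062 higher, and they ranged from 2050 to 3628 lower and 1833 to 4134 higher. Slide and scan could not be fitted as a block, since all arrays shared 1 of each. Each array pairs 1 treated with 1 control pool, so the fit of the 4 ratios is itself the paired one. With 8 channels as separate samples, the unpaired fit, Foxd1 lost its call (adjusted p = 0.327 by limma).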
